A study of Mus musculus with 4 samples.

Results

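Granzymes are the serine proteases that natural killer (NK) cells and cytotoxic T cells keep in granules, and perforin is the protein that forms pores in a target cell so that they can enter it. The 10 genes described here are Gzma, Gzmb, Gzmc, Gzmd, Gzme, Gzmf, Gzmg, Gzmk and Gzmm, which encode 9 granzymes, and Prf1, which encodes perforin. They were taken by symbol from a table of 55450 gene rows, and each had 1 row. The RNA came from NK cells and T cells sorted out of subcutaneous tumours of CT26, a mouse line of colon carcinoma, carried by BALB/C mice, the strain the line is syngeneic to. Each injection held 500000 live tumour cells. There were 2 libraries per cell type, and a library was a pool of tumours, from 4 mice in pool 1 and from 6 mice in pool 2. The series' design text describes 1 pool per number, so the NK and T libraries of a number were taken to come from the same mice, which the sample labels do not state directly. The animals' age and sex, the time of harvest and the sort gate were not given in the sources used here, so the T libraries may hold any mixture of T cell subsets that the gate admitted.

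The libraries held 2067728 to 2893240 reads assigned to genes, and ribosomal RNA genes took 36.9% to 52.4% of them, most in T pool 1. Values are normalized CPM, reads per 1000000 after the authors' correction for library composition, and 1 read was worth 0.354 to 0.551 of them. The labels fitted the markers. Summed over 6 NK cell markers (Ncr1, Klrb1c, Klre1, Klrd1, Tyrobp and Eomes), the NK libraries held 1893 and 1633 and the T libraries 79.8 and 125 normalized CPM. Summed over 6 T cell markers (Cd3d, Cd3e, Cd3g, Trac, Cd5 and Cd6), the T libraries held 1976 and 1592 and the NK libraries 65.9 and 51.8. In bulk RNA, fewer cells that express a gene and less RNA per cell cannot be told apart.

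Mouse granzymes sit in separate places in the genome. Granzyme A and granzyme K cleave after basic residues, and their genes lie on chromosome 13. Granzyme B cleaves after aspartate and starts caspase-dependent death, and its gene heads a chromosome 14 cluster that rodents have expanded with granzymes C, D, E, F and G, proteases best known from strongly activated mouse killer cells. Granzyme M cleaves after methionine, and its gene lies on chromosome 10, as does that of perforin. All granzymes are made as inactive precursors, trimmed by cathepsin C and stored on the proteoglycan serglycin.

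On GRCm38 with the GENCODE M21 annotation, Gzma spans chr13:113093825-113100981 and Gzmk chr13:113171608-113225908, both on the minus strand. Gzmm spans chr10:79689020-79695261 and Prf1 chr10:61297833-61304680, both on the plus strand. The 6 genes of the cluster fill chr14:56117626-56262260, a stretch of 145 kb, all on the minus strand, in the order Gzme, Gzmd, Gzmg, Gzmf, Gzmc and Gzmb along the chromosome. A further granzyme gene, Gzmn, lies between Gzmg and Gzmf and had 0 reads in all 4 libraries. All 10 genes are annotated as protein-coding.

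The promoters of Gzmc, Gzmd, Gzme, Gzmf and Gzmg are shown because these 5 neighbours are close copies that varied together in the libraries described below. Over the 250 bases before the RefSeq start, the 10 pairs among them were 79.2% to 95.2% identical (median 83.8%), whereas Gzmb was 34.0% to 48.4% identical to them. Matches were divided by all 250 bases, so a base left unaligned counted as not identical. The alignments covered 223 to 249 bases among the 5 genes and 110 to 168 bases with Gzmb. The 35 pairs with a member outside these 5 genes were 7.2% to 58.8% identical (median 43.6%). They include the Gzmb pairs. The lowest value was that of Gzma and Gzmc, with 26 bases aligned. The lines below give 119 aligned bases per gene from the RefSeq promoter table (GRCm38.p6, minus strand, written 5′ to 3′ along the gene), of which 101 are the same in all 5. They lie at chr14:56234658-56234776 for Gzmc, chr14:56211433-56211551 for Gzmf, chr14:56159600-56159718 for Gzmg, chr14:56132598-56132716 for Gzmd and chr14:56120631-56120749 for Gzme. Capitals mark the place of the octamer TGACGTCA, the letters bound by the ATF and CREB family of factors.
Gzmc: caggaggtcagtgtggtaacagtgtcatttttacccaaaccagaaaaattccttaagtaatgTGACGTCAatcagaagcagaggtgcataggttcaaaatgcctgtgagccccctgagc
Gzmf: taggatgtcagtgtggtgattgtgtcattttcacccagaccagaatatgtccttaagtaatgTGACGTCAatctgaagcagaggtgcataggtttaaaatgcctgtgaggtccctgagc
Gzmg: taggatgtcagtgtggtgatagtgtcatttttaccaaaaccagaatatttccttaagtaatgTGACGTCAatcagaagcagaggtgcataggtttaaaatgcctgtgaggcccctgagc
Gzmd: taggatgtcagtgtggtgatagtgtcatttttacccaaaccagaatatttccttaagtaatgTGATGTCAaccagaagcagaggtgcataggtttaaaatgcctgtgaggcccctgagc
Gzme: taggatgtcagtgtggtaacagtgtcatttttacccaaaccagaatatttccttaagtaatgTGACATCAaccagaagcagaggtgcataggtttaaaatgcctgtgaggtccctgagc
The octamer was whole in Gzmc, Gzmf and Gzmg. Counted from 1 at its 5′ end, Gzmd carries C4T and Gzme carries G5A. Gzmb was not part of this alignment, and the 119 bases before its RefSeq start, at chr14:56262335-56262453, are given below. Capitals there mark the letters TGTGGT, the core bound by RUNX factors. The same letters also occur, in lower case, in each of the 5 stretches above.
Gzmb: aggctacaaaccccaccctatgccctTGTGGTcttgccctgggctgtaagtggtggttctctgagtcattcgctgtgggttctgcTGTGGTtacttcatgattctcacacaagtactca
In windows of 250 bases before to 50 after the start, searched on both strands, TGACGTCA was in 588 of 32851 mouse promoters (1.79%) and in 3 of the 10 granzyme and perforin promoters. TGTGGT was in 16.8% of all promoters and in 9 of the 10, all but Gzmk. The T-box letters AGGTGTGA were in 1.28% of all promoters and in none of the 10, and the STAT letters TTCNNNGAA were in 8.30% and in Gzmb and Gzmm. A match is a run of letters and not a measured site. The RefSeq start used lies 44943 bases from the GENCODE 5′ end for Gzmk, 74 bases for Gzmb and at most 15 bases for the others.

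Granzyme A had the highest RNA level of the family in NK cells and a far lower level in T cells. Gzma stood at 8659 and 6595 normalized CPM in NK pools 1 and 2 and at 16.5 and 19.5 in T pools 1 and 2. The groups lay far apart and each cell type's pools lay close together. Per kilobase of exon, Gzma ranked 1 in both NK libraries among 21861 protein-coding genes and 1539 and 1373 in the T libraries. The means were 7627 ± 1459 (SD, n = 2) in NK cells and 18.0 ± 2.10 (SD, n = 2) in T cells. The log2 difference on the log2(value + 1) scale was 8.64 (SE 0.30), with an adjusted p of 3.35e-07 by limma, higher in both NK pools.

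Granzyme B was the most abundant granzyme of T pool 1. Gzmb stood at 3263 and 1966 in NK pools 1 and 2 and at 165 and 208 in T pools 1 and 2. Both NK values exceeded both T values, and the NK pools differed more from each other than the T pools did. Gzmb was 3.77 log2 units higher in NK cells (SE 0.33, adjusted p = 0.000247 by limma). In T cells Gzmb was still an abundant transcript, with ranks of 187 and 152 per kilobase, against 11 and 14 in NK cells.

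Perforin, the partner that lets granzymes into the target, was also among the abundant transcripts of NK cells. Prf1 stood at 2147 and 1171 in NK pools 1 and 2 and at 79.8 and 221 in T pools 1 and 2. The groups did not overlap, pool 1 was the higher NK library and pool 2 the higher T library. Prf1 was 3.57 log2 units higher in NK cells (SE 0.47, adjusted p = 0.00325 by limma). Without T pool 1 the difference was 2.84 and without T pool 2 it was 4.29. Per kilobase of exon, Prf1 relative to Gzmb was 0.366 and 0.331 in NK cells, 0.270 in T pool 1 and 0.589 in T pool 2.

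Granzyme C, which kills without caspases in mouse studies, was the second most abundant gene of the cluster in NK cells. Gzmc stood at 1053 and 1123 in NK pools 1 and 2 and at 6.61 and 41.5 in T pools 1 and 2. The NK libraries were alike, while the T libraries differed from each other by several fold. Gzmc was 5.92 log2 units higher in NK cells (SE 0.62, adjusted p = 0.000919 by limma). The difference was 4.68 without T pool 1 and 7.16 without T pool 2.

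Granzyme F gave the widest gap between the T pools in normalized CPM. Gzmf stood at 316 and 319 in NK pools 1 and 2, at 8.81 in T pool 1 and at 258 in T pool 2. T pool 2 lay just under the NK libraries and T pool 1 far below them. The NK mean was 317 ± 2.19 (SD, n = 2) and the T mean 133 ± 176 (SD, n = 2), so the spread between the T pools was about as large as the difference between the cell types. The log2 difference was 2.66 (SE 1.08) and did not pass (adjusted p = 0.322 by limma). It was 0.30 without T pool 1 and 5.02 without T pool 2.

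The remaining cluster granzymes, D, E and G, showed the same division at lower levels. Gzmd stood at 230 and 193 in NK pools 1 and 2, at 0.551 in T pool 1 (1 read) and at 40.7 in T pool 2. Gzme stood at 86.2 and 57.8 in the NK pools, at 0.551 in T pool 1 (1 read) and at 20.9 in T pool 2. Gzmg stood at 74.0 and 57.1 in the NK pools, was without a read in T pool 1 and stood at 14.9 in T pool 2. For all 3 genes both NK values exceeded both T values, and T pool 1 was at or near 0. None of the 3 passed limma's threshold, with log2 differences of 4.72 (SE 1.11, adjusted p = 0.0595) for Gzmd, 3.62 (SE 0.96, adjusted p = 0.0959) for Gzme and 4.05 (SE 1.00, adjusted p = 0.0723) for Gzmg. The 3 differences lay between 1.71 (Gzme) and 2.34 (Gzmd) without T pool 1, and between 5.53 (Gzme) and 7.09 (Gzmd) without T pool 2.

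Granzyme K and granzyme M were low in all libraries. Gzmk stood at 13.8 and 13.1 in NK pools 1 and 2 and at 8.81 and 8.15 in T pools 1 and 2. The NK values were slightly higher and the groups did not overlap, but only 16 to 37 reads lay behind each value. The log2 difference of 0.61 (SE 0.54) did not pass (adjusted p = 0.689 by limma). Gzmm had 2, 10, 0 and 3 reads in NK pools 1 and 2 and T pools 1 and 2, a mean of 2.18 normalized CPM in NK cells and 0.532 in T cells, with overlapping groups. A difference in Gzmm was not detectable at this depth (log2 difference 1.00, SE 0.91, adjusted p = 0.702 by limma).

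**Figure D1:**
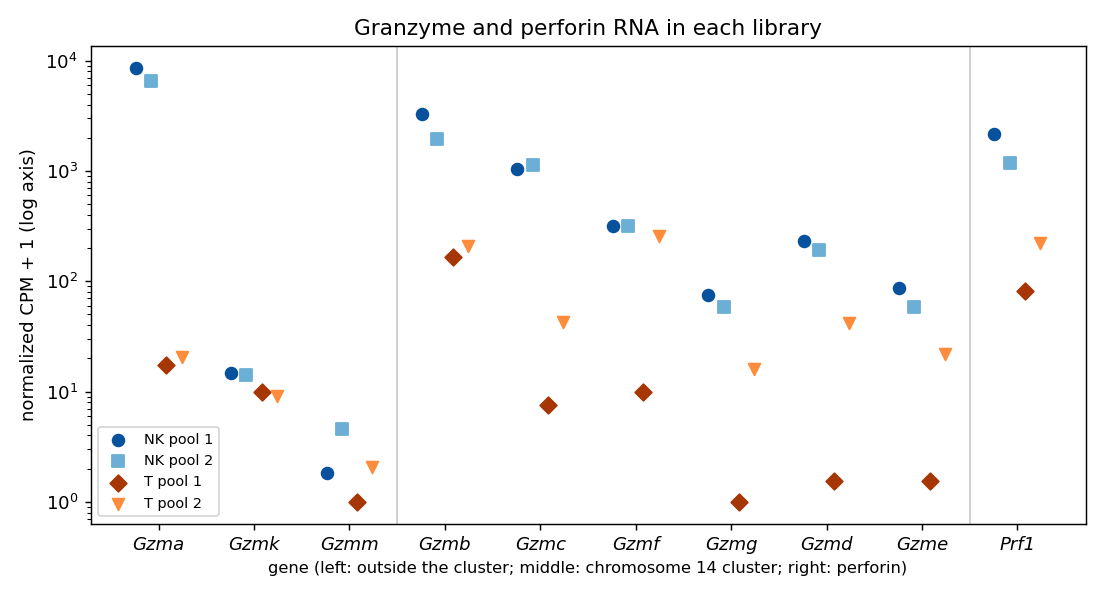
Normalized CPM + 1 (log axis) of the 10 genes in each library, with blue symbols for NK pools, red and orange symbols for T pools, and grey lines that separate the genes outside the cluster, the chromosome 14 cluster and perforin. Gzma and Gzmb are close between the T pools, while Gzmc, Gzmf, Gzmg, Gzmd and Gzme are lower in T pool 1 than in T pool 2.

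Of the 10 genes, 4 passed limma's test as higher in NK cells (Gzma, Gzmb, Gzmc and Prf1), against 1.22% of the 12105 genes that entered the fit. None passed as T-enriched, against 1.09% of all genes, and no member had a negative log2 difference. With an unadjusted p under 0.05 as the limit, 8 of the 10 favoured NK cells, against 6.52% of all genes. Both NK values lay above both T values for 9 of the 10, all but Gzmm, against 22.1% of all genes tested. With edgeR on the recovered reads the count was again 4, against 1.41% of all genes. With the pool number as a replicate block, limma called 8 of the 10, against 4.3% of all genes. The block added Gzmd (adjusted p = 9.08e-33), Gzme (3.63e-12), Gzmf (3.34e-16) and Gzmg (9.08e-13) at unchanged log2 differences, in a fit with 1 residual degree of freedom. That fit gave Gzmf an SE of 0.30, although its NK minus T difference was 5.01 in pool 1 and 0.30 in pool 2. These p-values thus draw on the spread of all genes and do not measure how far the pools differed for each gene. The median log2 difference of the 10 was 3.69, and that of all genes tested was 0.02. Leaving out any 1 of the 4 libraries left no gene called by limma. In those fits 4 to 8 members were higher in NK cells at an unadjusted p under 0.05, against 2.81% to 8.13% of all genes. edgeR without each library called 6 to 8 members higher in NK cells, against 1.31% to 2.15% of all genes.

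Per kilobase of exon, the order of the 10 genes was the same in both NK libraries. It ran from Gzma through Gzmb, Gzmc, Prf1, Gzmf, Gzmd, Gzme and Gzmg to Gzmk and Gzmm. The ranges of the NK pools overlapped between neighbours only for Gzme (94.1 and 63.1 normalized CPM per kilobase) and Gzmg (81.4 and 62.8). In T pool 1 the order began Gzmb, Prf1, Gzma, Gzmf, and in T pool 2 it began Gzmf, Gzmb, Prf1, Gzmc. Per kilobase, Gzmf stood at 343 and 347 in NK pools 1 and 2, at 9.59 in T pool 1 and at 281 in T pool 2. Its range over the T pools covered those of Gzmb (115 and 145) and Prf1 (30.9 and 85.4), so their order in T cells differed by pool.

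Within each pool, the NK to T ratio was computed from the recovered reads, with an exact 95% interval that covers counting error only. Each pool has 1 library per cell type, so these ratios have no replicate check. For Gzma the ratio was 524 (367 to 777) in pool 1 and 338 (260 to 449) in pool 2. For Gzmb it was 19.8 (17.7 to 22.3) and 9.44 (8.67 to 10.3), and for Prf1 26.9 (22.8 to 31.9) and 5.31 (4.87 to 5.79). The NK excess of all 3 was present in both pools, and for Gzmb and Prf1 it was smaller in pool 2 beyond counting error. For Gzmc the ratio was 159 (91.0 to 309) in pool 1 and 27.1 (22.5 to 32.9) in pool 2. For Gzmf it was 35.8 (21.9 to 63.0) in pool 1 and 1.24 (1.12 to 1.36) in pool 2. Granzyme F was thus many times higher in NK than in T cells in the first pool and nearly level between them in the second.

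For Gzmd the ratio fell from 417 (74.6 to 16513, on 1 T read) in pool 1 to 4.73 (3.86 to 5.84) in pool 2. For Gzme it fell from 157 (27.8 to 6214, on 1 T read) to 2.76 (2.04 to 3.79). For Gzmg, with 0 reads in T pool 1, the interval of the ratio in pool 1 began at 36.1 and had no upper end. In pool 2 Gzmg was 3.84-fold higher in NK cells (2.72 to 5.52). All 3 genes kept an NK excess in pool 2. For Gzmk the ratio was 1.57 (0.843 to 3.05) and 1.61 (0.931 to 2.84), intervals that include equal levels. Over the 10 genes, the median difference of log2(value + 1) was 5.41 in pool 1 and 2.04 in pool 2, beside medians of 0 and 0.000546 over all genes tested, and it was positive for all 10 in both pools.

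**Figure D2:**
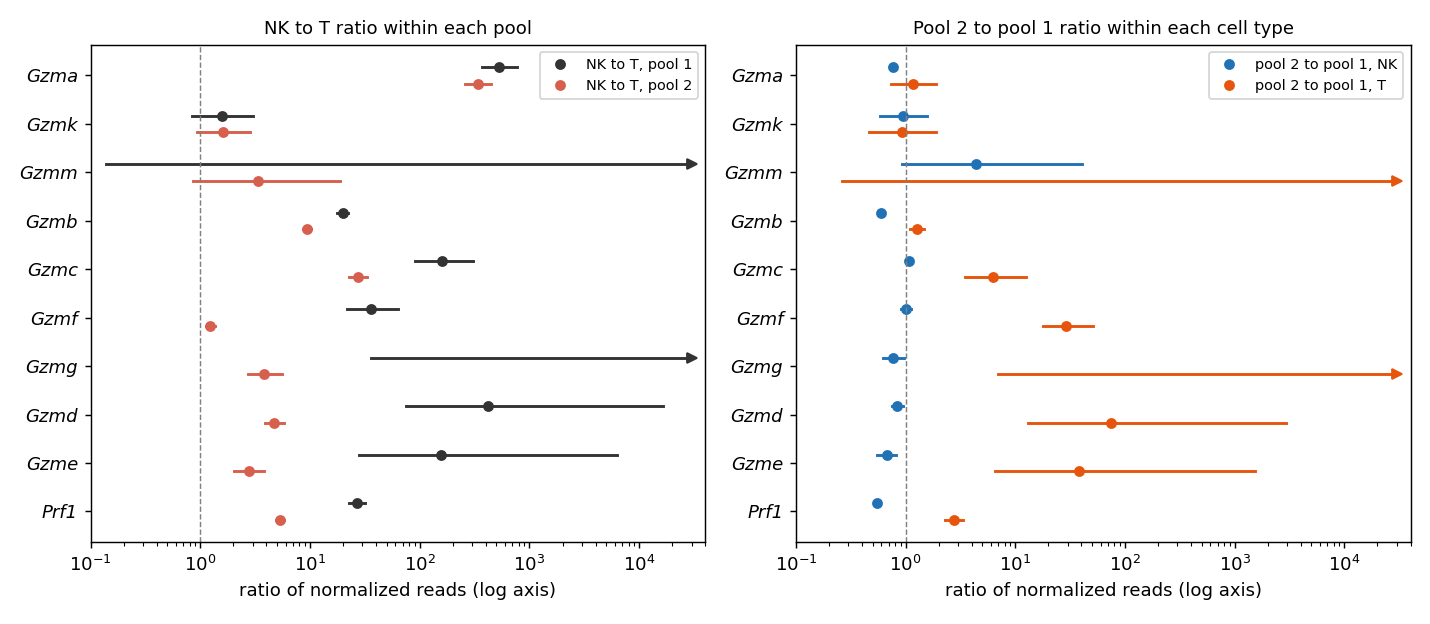
Ratios of normalized reads (log axis) with exact 95% intervals for counting error: NK to T within pool 1 and pool 2 (left), and pool 2 to pool 1 within NK and T cells (right). Arrows mark an interval with no upper end because a library had 0 reads, and the dashed line marks equal levels. Gzmf is 35.8-fold higher in NK cells in pool 1 and 1.24-fold in pool 2, and its T libraries differ 29.3-fold.

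For granzymes C to G, the T libraries of the pools differed by more than the NK libraries did. From T pool 1 to T pool 2, Gzmf was 29.3-fold higher (17.9 to 51.5) and Gzmc 6.27-fold (3.46 to 12.5). Gzmd was 74.0-fold (13.0 to 2948) and Gzme 38.0-fold higher (6.55 to 1525), each from 1 read in T pool 1. For Gzmg, with 0 reads in T pool 1, the interval began at 7.01 and had no upper end. Gzma was 1.18-fold (0.743 to 1.91), Gzmb 1.27-fold (1.10 to 1.46) and Prf1 2.76-fold higher (2.3 to 3.34). Granzymes C to G therefore differed between the T pools by more than granzymes A and B did, beyond counting error. In NK cells the same ratio was 1.01 (0.916 to 1.11) for Gzmf, 1.07 (1.01 to 1.12) for Gzmc and 0.839 (0.745 to 0.946) for Gzmd. It was 0.670 (0.543 to 0.826) for Gzme and 0.771 (0.620 to 0.959) for Gzmg, lower in NK pool 2, whereas in T cells both were higher in pool 2. The NK ratio was 0.602 (0.582 to 0.623) for Gzmb and 0.546 (0.522 to 0.570) for Prf1, the lowest ratios in the family. Among the 12105 genes tested, ordered by T pool 2 minus T pool 1 on the log2(value + 1) scale, Gzmd held place 2, Gzmf 5, Gzmg 14, Gzme 21 and Gzmc 224 from the top. These are differences between single libraries, and no test bears on them.

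Several measures moved together with this difference between the T pools. Summed CD8 markers (Cd8a and Cd8b1) stood at 204 in T pool 1 and 318 in T pool 2, and summed CD4 markers (Cd4, Cd40lg and Foxp3) at 349 and 152. The 5 neutrophil markers summed to 92.5 and 12.8, mostly from S100a9 (62.8 and 5.67) and S100a8 (26.4 and 6.38), with Ly6g at 0 in both. The 3 gamma-delta T cell markers summed to 97.5 and 45.4, mostly from Trdc (68.8 and 23.0), which was higher still in NK cells (273 and 285), while Trgv2 stood at 18.7 and 20.2. The share of reads from ribosomal RNA genes was 52.4% in T pool 1 and 42.7% in T pool 2. T pool 2 thus held relatively more CD8 and less CD4 RNA, and the part of each measure in the granzyme difference was not tested.

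The level of NK RNA in the T libraries was read from NK markers. The 6 NK markers summed to 4.22% of the NK level in T pool 1, with 2 of them at 0, and to 7.66% in T pool 2, with none at 0. In pool 2 the T level was 0.387% of the NK level for Ncr1, 0.305% for Klrb1c and 0.296% for Gzma. In the same libraries it was 80.9% for Gzmf, 36.2% for Gzme, 26.1% for Gzmg and 21.1% for Gzmd. Ncr1, Klrb1c and Gzma were therefore at less than 1% of their NK level in the T library in which granzymes D to G were highest. The other NK markers of the list stood higher in pool 2, Tyrobp at 1.00%, Eomes at 7.61% and Klre1 at 12.9%. Klrd1, which activated CD8 T cells also express, stood at 32.6%. In pool 1 the T level was 5.81% for Tyrobp, 7.38% for Eomes, 0.728% for Klre1 (1 read) and 10.7% for Klrd1. The shares of Klre1 and Klrd1 were thus higher in pool 2, as those of granzymes C to G were, and that of Tyrobp was lower. The part of NK RNA in the granzyme levels of the T libraries was not tested.

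Markers of other cell types were summed in the same way. In T pool 1, where the whole family summed to 286 and Gzmc to Gzmg to 16.5, the neutrophil sum of 92.5 was not small beside it. That sum was mostly S100a9 (62.8) and S100a8 (26.4), while Retnlg stood at 2.75, Csf3r at 0.551 (1 read) and Ly6g at 0. The 7 mast cell and basophil markers summed to 14.6 and 19.1 in NK pools 1 and 2 and to 0 and 3.19 in T pools 1 and 2, with the defining genes Cpa3, Fcer1a and Ms4a2 at 0 in all 4. The 6 macrophage markers summed to 235 and 33.7 in the NK pools and to 32.5 and 6.73 in the T pools. They were highest in NK pool 1, where Gzmb and Prf1 also were, and their part in that was not tested. The 4 plasmacytoid dendritic cell markers summed to 0 and 12.8 in the NK pools and to 28.6 and 33.7 in the T pools. This cell type also makes Gzmb. Most of the T sums was Ccr9 (17.1 and 22.0), which was at 0 in both NK pools. Pacsin1 stood at 0 and 12.4 in the NK pools and at 6.06 and 11.3 in the T pools. Siglech was at 1.65 in T pool 1 and at 0 elsewhere. The 4 B cell markers reached 1.06 at most and the 4 epithelial markers 6.61 at most.

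Reads from close copies may be shared among the cluster genes, since the counting method is not given. Of all stretches of 75 bases in the annotated transcripts, 5.73% of Gzmd, 4.75% of Gzme, 9.47% of Gzmf and 6.83% of Gzmg also occur in another gene, and none of Gzma, Gzmb, Gzmc, Gzmk, Gzmm or Prf1. For Gzmf, none of these were in another granzyme: all lay in Gm4022, a gene on the opposite strand that overlaps its exons by 151 bases and had at most 0.407 normalized CPM. At 50 bases the shares were 4.14% for Gzmc and 19.4% to 21.9% for the other 4. Most of each transcript was thus its own at these lengths, and the strand setting of the count was not given in the sources used here.

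**Figure D3:**
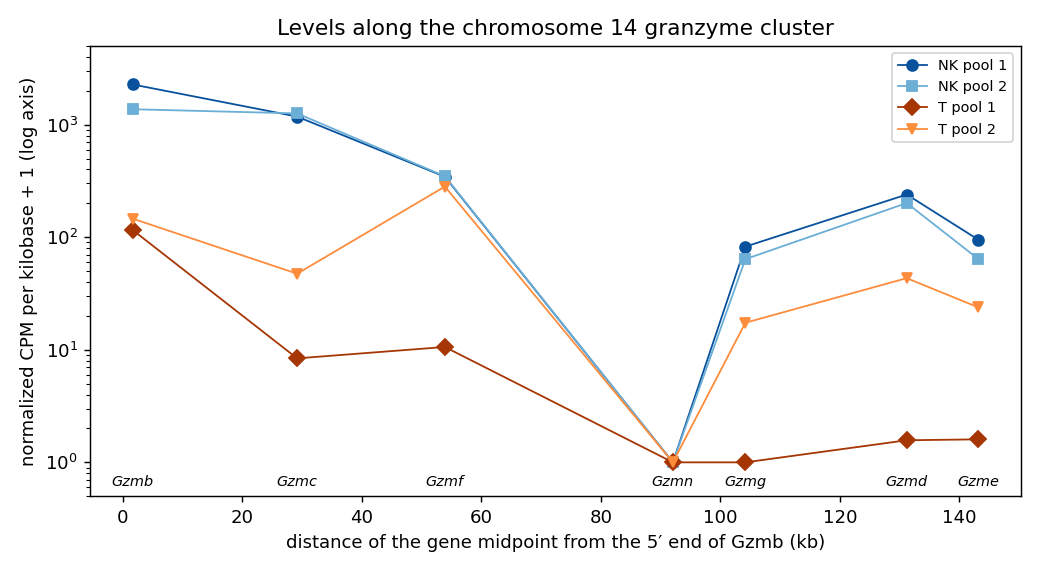
Normalized CPM per kilobase of exon + 1 (log axis) against the distance of each gene's midpoint from the 5′ end of Gzmb (kb), for the 4 libraries; lines join the genes of 1 library. The NK lines lie close together beyond Gzmb, T pool 2 meets them at Gzmf (281 against 343 and 347 per kilobase), and Gzmn is at 0 in all libraries.

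As a whole, the family took a large part of the NK transcriptome and a small part of the T transcriptome. The 10 genes summed to 15843 and 11499 normalized CPM in NK pools 1 and 2 and to 286 and 834 in T pools 1 and 2. This was 2.77% and 1.99% of the NK reads outside ribosomal RNA genes and 0.0528% and 0.142% of the T reads. The NK to T ratio of the sum was 55.3 (50.7 to 60.4) in pool 1 and 13.8 (13.2 to 14.4) in pool 2. Both T sums lay far below both NK sums, with T pool 2 above T pool 1.

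The make-up of that sum differed between the cell types. Gzma made up 54.7% and 57.4% of the family's normalized reads in NK pools 1 and 2, but 5.77% and 2.34% in T pools 1 and 2. Gzmb made up 20.6% and 17.1% in NK cells, 57.5% in T pool 1 and 25% in T pool 2. Prf1 made up 13.6% and 10.2% in NK cells and 27.9% and 26.5% in T cells. Gzma was thus the leading gene in both NK libraries and Gzmb in T pool 1. Gzmf made up 1.99% and 2.77% in NK cells, 3.08% (exact binomial 95% interval 1.77 to 4.95) in T pool 1 and 30.9% (29.1 to 32.9) in T pool 2, where it was the largest share.

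Per kilobase of exon the picture shifted because perforin has the longest transcript. Gzma then made up 63.0% and 63.5% of the family in NK pools 1 and 2 and 8.81% and 2.91% in T pools 1 and 2. Gzmb made up 61.5% in T pool 1 and 21.8% in T pool 2, and Gzmf 5.14% and 42.2%. Prf1 dropped to 6.08% and 4.39% in NK cells and to 16.6% and 12.8% in T cells. The leading gene of each library was the same on both scales in NK cells and in T pool 1, and in T pool 2 it was Gzmf on both.

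**Figure D4:**
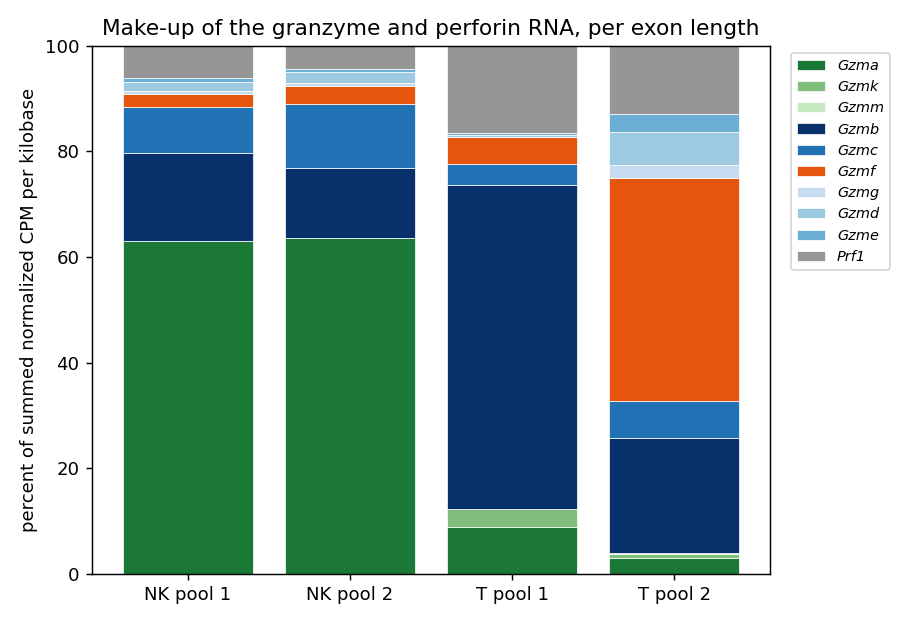
Percent of the summed normalized CPM per kilobase of exon that each of the 10 genes holds in each library. Gzma fills 63.0% and 63.5% of the NK bars, Gzmb 61.5% of the T pool 1 bar and Gzmf 42.2% of the T pool 2 bar.

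The cluster on chromosome 14 was set against the 3 granzymes outside it. The 6 cluster genes summed to 5022 and 3716 normalized CPM in NK pools 1 and 2 and to 181 and 584 in T pools 1 and 2. Gzma, Gzmk and Gzmm summed to 8674 and 6612 in NK cells and to 25.3 and 28.7 in T cells. The ratio of cluster to the others was 0.579 (0.566 to 0.592) and 0.562 (0.549 to 0.576) in the NK libraries, 7.15 (5.24 to 9.96) in T pool 1 and 20.4 (16.3 to 25.8) in T pool 2. The others outweighed the cluster in both NK libraries, and the cluster outweighed the others in both T libraries. Nearly all of the outside sum was Gzma in NK cells, since Gzmk and Gzmm together held 14.6 and 16.7 normalized CPM there and 8.81 and 9.21 in T cells. Per kilobase the ratio was 0.488 and 0.502 in NK cells and 5.83 and 21.3 in T cells.

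Within the cluster, Gzmb was set apart from its 5 neighbours. Without Gzmb, the cluster summed to 1758 and 1750 in NK pools 1 and 2, to 16.5 in T pool 1 and to 376 in T pool 2. The NK libraries were level, with a ratio of pool 2 to pool 1 of 0.995 (0.955 to 1.04), while T pool 2 was 22.8-fold above T pool 1 (15.8 to 33.9). The sum of the 5 neighbours relative to Gzmb was 0.539 and 0.890 in NK cells, 0.100 in T pool 1 and 1.80 in T pool 2. Per kilobase, Gzmf relative to Gzmc was 0.292 and 0.276 in NK cells, 1.30 in T pool 1 and 6.05 in T pool 2. The T pool 1 value rests on 16 Gzmf and 12 Gzmc reads, and its interval (0.576 to 3.004) includes equal levels. Gzmc was thus above Gzmf in both NK libraries and below it in T pool 2 (interval 4.97 to 7.42).

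The machinery that stores and releases the granules was read from 4 lists, set beside the median log2 difference of 0.02 over all genes. Among all genes tested, 1.22% passed as higher in NK cells and 1.09% as higher in T cells. By limma, 2 of 12 granule exocytosis genes passed as higher in NK cells and none as higher in T cells (median log2 difference 0.36, 9 of 12 positive). Rab27b, a GTPase that docks secretory vesicles, stood at 54.5 and 47.9 in NK pools 1 and 2, at 0 in T pool 1 and at 0.354 (1 read) in T pool 2 (adjusted p = 0.00133 by limma). Sytl2, an effector of Rab27 proteins, stood at 134 and 133 in NK cells and at 36.3 and 44.3 in T cells (adjusted p = 0.0286 by limma). Both were higher in each NK library than in each T library. Of 7 storage and activation genes, 1 passed, and all 7 had positive differences (median 1.41). This was Nkg7, a granule membrane protein needed for degranulation, at 672 and 701 in NK cells and at 177 and 199 in T cells (adjusted p = 0.00716 by limma).

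Serpins, the inhibitors that shield the killer cell from its own proteases, gave 3 of 5 tested genes higher in NK cells and none higher in T cells (median log2 difference 2.55). The shares over all genes tested were 1.22% and 1.09%. Serpinb9, the inhibitor of granzyme B, stood at 402 and 270 in NK pools 1 and 2 and at 38.5 and 27.6 in T pools 1 and 2 (adjusted p = 0.00109 by limma). Serpinb9b, an inhibitor of granzyme M, stood at 288 and 178 in NK cells, at 0 in T pool 1 and at 25.5 in T pool 2 (adjusted p = 0.0317 by limma). Serpinb6b, a relative of the same clade, stood at 233 and 184 in NK cells and at 31.9 and 37.6 in T cells (adjusted p = 0.00397 by limma). All 3 separated the cell types, and Serpinb9b had no read in T pool 1 and 72 in T pool 2.

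For the granzyme and perforin genes, 11 transcriptional regulators were listed. By limma, 2 of them were higher in NK cells and 1 was higher in T cells (median log2 difference 0.28, 6 of 11 positive). The shares over all genes tested were 1.22% and 1.09%. Eomes, a T-box activator of both gene groups that is also among the NK markers used above, stood at 284 and 429 in NK pools 1 and 2 and at 20.9 and 32.6 in T pools 1 and 2 (adjusted p = 0.000758 by limma). Id2, which NK cells need to mature, stood at 1699 and 1517 in NK cells and at 698 and 584 in T cells (adjusted p = 0.0380 by limma). Tcf7, which encodes TCF-1, a factor of less differentiated lymphocytes, stood at 32.1 and 72.7 in NK cells and at 169 and 566 in T cells (adjusted p = 0.0344 by limma). Tcf7 was lower in both NK libraries than in either T library, and T pool 2 was the highest.

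The genes whose pattern was most like a member's were ranked by the root mean square distance of centred log2(value + 1) over the 4 libraries, among 6910 genes with a mean of at least 10. With 4 libraries such a distance mostly reads the cell type and the pool. For Gzma the nearest were Ncr1 (distance 0.437), Tmsb15a (0.690) and Klrb1c (0.905). For Gzmb they were Xcl1 (0.162), Gm15518 (0.223) and Samd3 (0.272), and for Prf1 Gem (0.129), Ccl7 (0.187) and Cd244a (0.291). For Gzmd, the cluster gene with the largest gap between the T pools on the log scale, they were Arsb (0.264), Fcrl6 (0.386) and Serpinb9b (0.404). Arsb, for one, stood at 211 and 179 in NK pools 1 and 2, at 0.551 in T pool 1 and at 25.2 in T pool 2.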

How the data were processed

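The authors deposited 1 table of normalized signal per gene and library. Within a tolerance of 0.001 reads, 100% of non-zero values were whole multiples of the smallest value in their library, so whole reads were recovered. Scaling factors of 0.878 to 1.10 were implied, and TMM factors recomputed from those reads lay within 0.001 of them. The unit is therefore taken as normalized CPM, with no length correction. Per the submitters' processing notes, STAR 2.7.0f, Bowtie2 2.3.4.1, FastQC, limma and the build GRCm38.p6 were used, without stated roles. Read counting, strand use and the normalization method were not given in the sources used here. Rows without a gene name held 0.0198% to 0.0214% of reads and were left out. For a repeated symbol, the highest-mean row was used.

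Genes with a mean of at least 1 were tested on log2(value + 1) with limma 3.58.1 (R 4.3.3; lmFit, eBayes with trend, Benjamini-Hochberg at 0.05), 2 libraries against 2. Such a design allows an exact permutation p of 0.333 at the least, so the limma p-values draw on the spread of all genes. edgeR 4.0.16 (quasi-likelihood) and DESeq2 1.42.0 on recovered reads, other pseudocounts, filters and scalings, a replicate block and each library left out were alternatives. The block rests on reading a number in the design text as 1 pool of mice for both cell types, which the sample labels do not state directly. The pool differences of NK and T cells correlated at only 0.162 over 12105 genes. Fits were checked on simulated data. Intervals are exact and cover counting error only. Exon lengths and coordinates came from GENCODE M21 and promoters from RefSeq (GRCm38.p6), aligned with MAFFT 7.526.

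The members, lists, tests and naming rule were chosen with earlier results of these data known. The rule names all 10 members, per list up to 3 genes past the threshold with the largest mean, and the 3 genes nearest in pattern to Gzma, Gzmb, Prf1 and the cluster gene with the largest T pool gap. Vamp7, on the exocytosis list, was not analysed here.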

Additional observations from a re-analysis of the deposited data

How the results depend on the processing

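The count of genes called was 280 (148 higher in NK cells) and changed to 162 at a pseudocount of 0.25, 430 with DESeq2 and 1002 with the replicate block. Without a library scaling factor it was 216, of which 63.4% were higher in NK cells against 52.9%, and the median of all genes shifted to 0.22. Leaving out each library gave 0 to 0 genes with limma (677 to 1753 at an unadjusted p under 0.05), in fits with 1 residual degree of freedom and 1 arm of 1 library assumed to vary like the other. With edgeR, a check added after the data were seen, it gave 323 to 486 against 330.

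The count of members called was 4 and rose to 7 at a pseudocount of 4 (1.48% of all genes higher in NK cells), to 7 with no filter (1.08%), each adding Gzmd, Gzme and Gzmg, and to 8 with the replicate block (4.3%). Leaving out each library gave 0 to 0 with limma and 6 to 8 with edgeR. No log2 difference of a member changed sign under any of these settings: 112 values kept their side of the threshold, 10 passed and 16 no longer passed. The sizes for granzymes D to G were smaller with edgeR and DESeq2. The limma fit averages log2(value + 1) over the libraries of a cell type, whereas edgeR and DESeq2 model the recovered reads. With edgeR and DESeq2, Gzmf was 1.24 and 1.26, against 2.66 with limma. Gzmd was 3.30 and 3.37 (limma 4.72), Gzme 2.66 and 2.75 (3.62) and Gzmg 3.03 and 3.15 (4.05). Gzmc and Prf1 were lower by less, and Gzma, Gzmb, Gzmk and Gzmm were not lower. The part of this difference in method was not tested.

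The log2 NK to T ratio of the summed cluster was 4.79 in pool 1 and 2.67 in pool 2, and became 4.99 and 2.57 per kilobase and 6.73 and 2.22 without Gzmb. For Gzma, Gzmk and Gzmm it was 8.42 and 7.85, and became 0.73 and 0.86 without Gzma. Depth limits Gzmm, Gzmk and the cluster genes in T pool 1, where 0 to 16 reads were counted for each of Gzmc to Gzmg.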

Other observations

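Granule proteases of other cell types share the chromosome 14 locus with the granzyme cluster. Of 8 such genes listed, 5 (Gzmn, Mcpt1, Mcpt2, Mcpt4 and Mcpt9) had no read in any library and 3 were tested. Cma1, a mast cell chymase, stood at 12.6 and 13.5 normalized CPM in NK pools 1 and 2, on 31 and 38 reads, and had no read in either T library. It passed limma's test (adjusted p = 0.0226). Ctsg, the neutrophil protease cathepsin G, had 28 and 2 reads in the NK pools and none in the T pools. Mcpt8, a basophil protease, had 5 and 16 reads in the NK pools and 0 and 9 in the T pools. The mast cell genes Cpa3, Fcer1a, Ms4a2 and Tpsb2 were at 0 in all 4 libraries, the NK libraries with Cma1 reads included.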
